A study of Homo sapiens with 12 samples.

Results

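The cytosolic ribosomal protein genes were followed through the differentiation of H9 human embryonic stem cells towards γδ T cells. They were taken as protein-coding genes with symbols of RPS or RPL and a number, which A, L, X or L1 may follow. RPLP0, RPLP1, RPLP2 and RPSA were also taken. Mitochondrial ribosomal proteins, pseudogenes and symbols with other endings, such as RPL36AL, were left out. There were 84 such genes among the 36601 of the count table. The 32 genes of the small subunit and the 52 of the large subunit lie on 21 chromosomes, with 12 on chromosome 19. Of the 84 genes, 82 passed the filter on low counts, all 32 of the small subunit and 50 of the large, and were tested among 20183 genes.

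H9 cells of wild-type genotype had been kept on mouse embryonic fibroblast feeders and were then carried through a cytokine-driven protocol, with 3 libraries on each of days 10, 15, 20 and 25, all in a single batch by their labels. Day 25 was labelled mature γδT cell, days 20 and 15 T progenitor cells, and day 10 hematopoietic progenitor cells. Up to day 10 the cells were in APEL2 medium, first with CHIR99021, BMP4, Activin A and a Rock inhibitor, then with VEGF and bFGF, and last with Flt3L, IL-7, SCF and SB431542 added. From day 10 all later cells were in MEM-α with FBS, GlutaMAX, MAP, SCF, IL-7, Flt3L and DLL4. All libraries come from 1 cell line, and the labels do not say whether the 3 libraries of a day came from separate cultures, so a p-value here reflects library-to-library spread that may be technical in origin.

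The ribosome is the particle that makes protein from mRNA. Its small subunit decodes the message and its large subunit joins the amino acids. Each ribosomal protein is needed in about equal number, and in human cells most of the genes start transcription at a stretch of pyrimidines, the 5′ terminal oligopyrimidine tract, through which their mRNAs are translated together when growth signals are present. Blood cell precursors are sensitive to the loss of single ribosomal proteins, as in the inherited red cell deficiency Diamond-Blackfan anaemia.

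Library totals ran from 27026196 to 39811230 counts. The mRNA levels of cell type markers changed strongly over the days. The summed level of 8 megakaryocyte markers, in counts per 1000000 (CPM) scaled by the trimmed mean of M values (TMM), was 4537 to 4874 at day 10, 21917 to 22849 at day 15, 354 to 361 at day 20 and 71.5 to 77.8 at day 25. That of 10 myeloid markers was 520.3 to 538 at day 10, 5823 to 6113 at day 15, 20225 to 20648 at day 20 and 12946 to 13215 at day 25. The 10 erythroid markers summed to 526 to 556, 839 to 864, 23.9 to 29.9 and 1.63 to 2.43 CPM on the 4 days in order, with HBE1 among those at 0 at day 25, and the 6 progenitor markers to 1287 to 1338, 832 to 852, 784 to 795 and 881 to 904 CPM. That of 8 T-cell markers was 9.53 to 10.8, 204 to 217, 39.9 to 44.8 and 20.3 to 22.8 CPM on the 4 days in order. CD3E and CD3G, chains of the T-cell receptor complex, had no count at days 10 and 15, and CD3D and CD3G had none at day 25, where 3 counts over the 3 libraries would be 0.0287 CPM. In CD3D and CD3G the libraries labelled mature γδT cell therefore went against their label. Against day 10, 4 of the 6 tested T-cell markers were called higher at day 25, beside 38.6% of all tested genes. The other direction was called in 1, beside 36.0%. In other sets too, members did not all move with the sum. Of 9 tested erythroid markers, 6 were higher and 3 lower at day 15 than at day 10, beside 42.4% and 30.8% of tested genes. Of 10 myeloid markers, 5 were higher and 5 lower at day 25 than at day 20, beside 24.5% and 25.1%. Of 6 progenitor markers, 3 were higher and 3 lower at day 25 than at day 10, beside 38.6% and 36.0%. Days are used below as the names of the groups. In bulk RNA, fewer cells of a type and less RNA per cell cannot be told apart.

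Ribosomal protein mRNA took its smallest share of the libraries at day 15. The 84 genes held 4.06%, 3.94% and 3.91% of all counts in the day 10 libraries, 1.25%, 1.23% and 1.26% at day 15, 3.75%, 3.66% and 3.59% at day 20, and 2.18%, 2.15% and 2.19% at day 25. The libraries of the 4 days did not overlap. The means were 3.97% ± 0.0767 at day 10, 1.25% ± 0.0164 at day 15, 3.66% ± 0.0816 at day 20 and 2.17% ± 0.0204 at day 25 (SD, n = 3 each). The share at day 10 was 3.18 times that at day 15, the share at day 20 was 2.94 times that at day 15 and 1.69 times that at day 25. As a sum over genes chosen together, the share was not tested. Small and large subunit moved nearly side by side. The ratio of their counts was 0.592 at day 10, 0.574 at day 15, 0.593 at day 20 and 0.585 at day 25. It was slightly lower at day 15, where the libraries ran from 0.570 to 0.577, below the lowest of the other days, 0.581 at day 25.

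**Figure D1:**
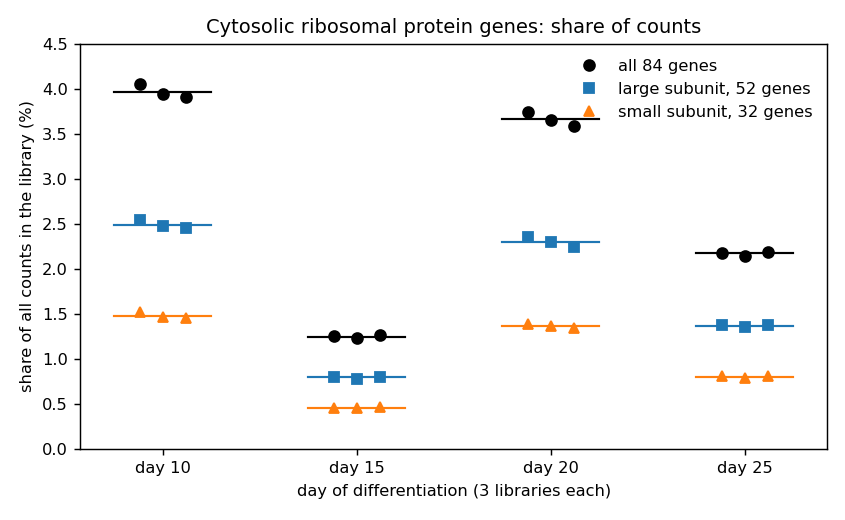
Share of all counts (%, y axis) held by the ribosomal protein genes in each library, by day (x axis), for all 84 genes, the 52 large subunit genes and the 32 small subunit genes; points are libraries and lines the mean of 3. The shares at day 15, between 1.23% and 1.26%, lie below those of every other day, and those at day 25, between 2.15% and 2.19%, below days 10 and 20.

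The proliferation markers moved with the share. Their summed level over 8 genes was 2899 to 3013 CPM at day 10, 533 to 542 at day 15, 1023 to 1048 at day 20 and 636 to 640.4 at day 25. All 8 were called lower at day 15 than at day 10, beside 30.8% of all tested genes. They were all called higher at day 20 than at day 15, beside 40.6%. At day 25 all 8 were called lower than at day 20, beside 25.1%, and lower than at day 10, beside 36.0%. The share of counts from the mitochondrial genome was 5.45% ± 0.263, 3.54% ± 0.0767, 5.47% ± 0.292 and 5.40% ± 0.243 on the 4 days in order (SD, n = 3 each), and was also smallest at day 15. The part of the cell mixture, of proliferation and of mitochondrial counts in the result was not tested.

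At day 15 the fall reached nearly every gene. Of 82 tested genes, 80 were lower at day 15 than at day 10, beside 30.8% of all tested genes, and 1, RPS27L, was higher, beside 42.4% (edgeR quasi-likelihood test, Benjamini-Hochberg adjusted p under 0.05, n = 3 libraries a day). RPL39L was not called. The median log2 fold change was -1.08, a level 2.12-fold lower at day 15, with quartiles of -1.26 and -0.93, against a median of 0.20 over all tested genes. The spread of the log2 fold changes was narrow, with an SD of 0.41 over the ribosomal protein genes and 1.91 over all tested genes, and 76 of the 82 lay within 0.5 of their median. At least a 2-fold fall was seen in 55, beside 14.7% of all tested genes. The day 15 libraries lay wholly below those of day 10 for 80 genes, beside 31.8%, and wholly above for 1, beside 42.5%. RPS10, one of the 80 called lower, lost its call whenever any library of day 10 or day 15 was left out, and RPL39L gained one, as lower, without day 15 replicate 2 (log2 -0.87) or under scaling by library totals (log2 -1.01).

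By day 20 most of that was regained. The level was higher at day 20 than at day 15 in 79 of 82 genes, beside 40.6% of all tested genes, and lower in 2, RPL26L1 and RPS27L, beside 36.0%. RPS10 was not called. The median log2 fold change was 0.99, or 1.99-fold higher at day 20, against 0.10 over all tested genes. Under scaling by library totals it was 1.62, against 0.73 over all tested genes. Under TMM scaling 39 genes were at least 2-fold higher, beside 23.7%. The libraries of day 20 lay wholly above those of day 15 for 79 genes, beside 41.2%, and wholly below for 2, beside 37.2%. RPL26L1 turns to a higher level at day 20 when libraries are scaled by their totals alone.

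Between days 20 and 25 the genes fell again, by less. No gene was called higher at day 25, beside 24.5% of all tested genes, and 79 were lower, beside 25.1%. RPL26L1, RPS10 and RPS27L were not called. At an unadjusted p under 0.05 the edgeR test also gave 0 higher. At an adjusted p under 0.05 DESeq2 gave 0 higher and 78 lower. RPL7L1, one of the 79 (log2 -0.11, adjusted p = 0.046), lost its call under DESeq2, under the replicate block and without any one of day 10 replicates 1, 2 and 3, day 15 replicate 1, day 20 replicates 2 and 3 or day 25 replicates 1, 2 and 3. RPL39L lost its call without day 20 replicate 2 (log2 -0.62), day 25 replicate 1 (log2 -0.59) or day 25 replicate 2 (log2 -0.67). The median log2 fold change was -0.62, a level 1.54-fold lower at day 25, against -0.03 over all tested genes, and 80 genes lay within 0.5 of it. For 79 genes the day 25 libraries lay wholly below those of day 20, beside 28.7% of all tested genes, and for 0 wholly above, beside 28.2%.

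Set against day 10, day 25 was lower in 80 genes, beside 36.0% of all tested genes, and higher in 2, RPL39L and RPS27L, beside 38.6%. The median log2 fold change was -0.73, or 1.66-fold lower at day 25, against 0.02 over all tested genes. A fall of at least 2-fold was called in 12 genes, a share near the 16.5% of all tested genes. The day 25 libraries lay wholly below those of day 10 for 80 genes, beside 37.6%, and wholly above for 2, beside 39.7%. The comparisons share days, and are therefore not independent of each other. Ordered by mean level, 58 of the 82 genes ran day 10, 20, 25, 15 from high to low, and 15 ran day 20, 10, 25, 15. The remaining 9 put day 15 above at least 1 later day, or, for RPL39L, put day 25 above day 10.

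**Figure D2:**
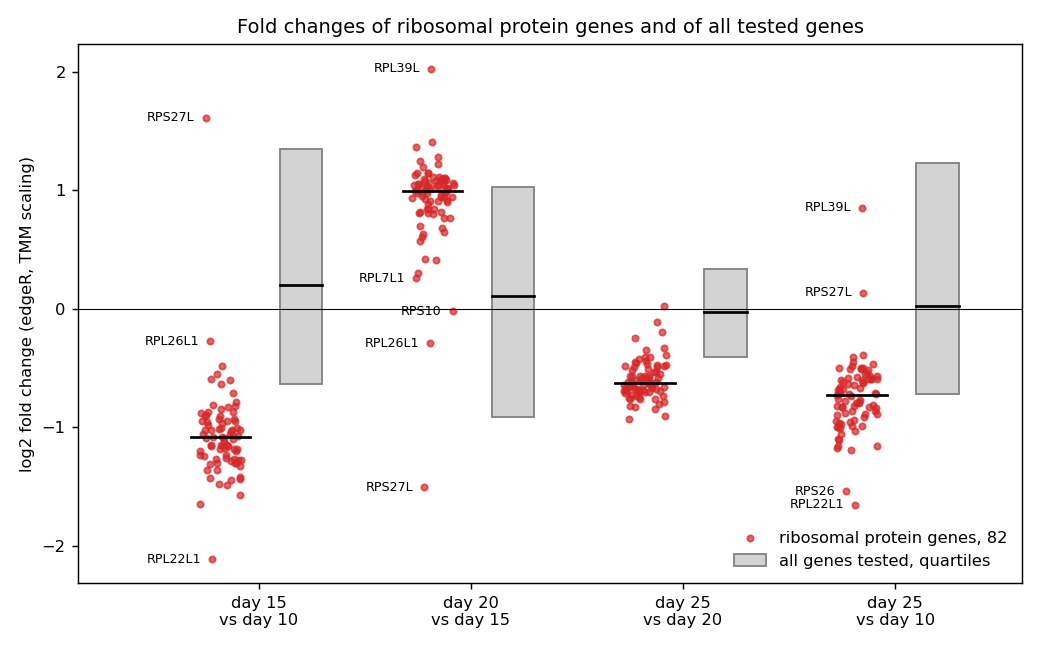
Log2 fold change (y axis) of the 82 tested ribosomal protein genes, as points with their median as a line, beside the quartiles and median of all tested genes (grey), in each of the 4 comparisons (x axis). The ribosomal protein medians of -1.08, -0.62 and -0.73 lie below the lower quartile of all genes, and the median of 0.99 lies just under their upper quartile of 1.03. RPS27L, RPL22L1, RPL39L, RPL26L1, RPS10, RPL7L1 and RPS26 stand off from the other points in some of the comparisons.

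The subunits were alike in each comparison. The median log2 fold change was -1.08 in both subunits between days 15 and 10, 1.00 in the small and 0.99 in the large between days 20 and 15, -0.62 in both between days 25 and 20, and -0.77 in the small and -0.72 in the large between days 25 and 10. In the large subunit stalk, where elongation factors dock, RPLP0 had 1490, 1507 and 1497 CPM at day 10, then 539.8, 539 and 568 at day 15, then 1201, 1142 and 1127 at day 20, and last 675, 668 and 669 at day 25. Its libraries of different days did not overlap. It was 2.73-fold lower at day 15 than at day 10 (log2 -1.45 ± 0.030 SE, adjusted p = 6.5e-36) and 2.11-fold higher at day 20 than at day 15. RPLP1 and RPLP2, its partners in the stalk, had log2 fold changes of -1.09 and -1.18 between days 15 and 10.

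RPLP0 was among the 5 genes with the largest share of counts, with RPL3, RPL4, RPS2 and RPL13A, which together made up 19.3% of ribosomal protein counts at day 10, 16.8% at day 15, 16.7% at day 20 and 17.0% at day 25. RPL3, close to the peptidyl transferase centre, had 1572, 1570.4 and 1546 CPM at day 10, then 577, 562 and 592 at day 15, then 1192, 1188 and 1119 at day 20, and last 796, 777 and 815 at day 25. It was 2.71-fold lower at day 15 than at day 10 (log2 -1.44 ± 0.031 SE, adjusted p = 1.3e-35), without overlap. RPS2, at the entry channel of the mRNA in the small subunit, had 455, 425 and 453 CPM at day 15, against 1427, 1353 and 1391 CPM at day 10. Its fall of 3.13-fold was the largest among the 5. Per kilobase of transcript, the median gene had 512 CPM at day 10, 239 at day 15, 449 at day 20 and 289 at day 25, and RPL13A had the highest level on each day, with 1798, 731, 1514 and 1088 CPM per kilobase in order.

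Several genes mutated in Diamond-Blackfan anaemia moved close to the median. RPL5 and RPL11, which bind the 5S rRNA, had log2 fold changes of -1.15 and -0.90 between days 15 and 10. RPL5 had 246, 259.7 and 252 CPM at day 15, against 565, 559 and 557 CPM at day 10, without overlap. RPL11 had 184, 187 and 181 CPM at day 15, against 342, 363 and 324 CPM at day 10, again without overlap. RPS7 and RPS24 of the small subunit had log2 fold changes of -0.93 and -1.16.

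**Figure D3:**
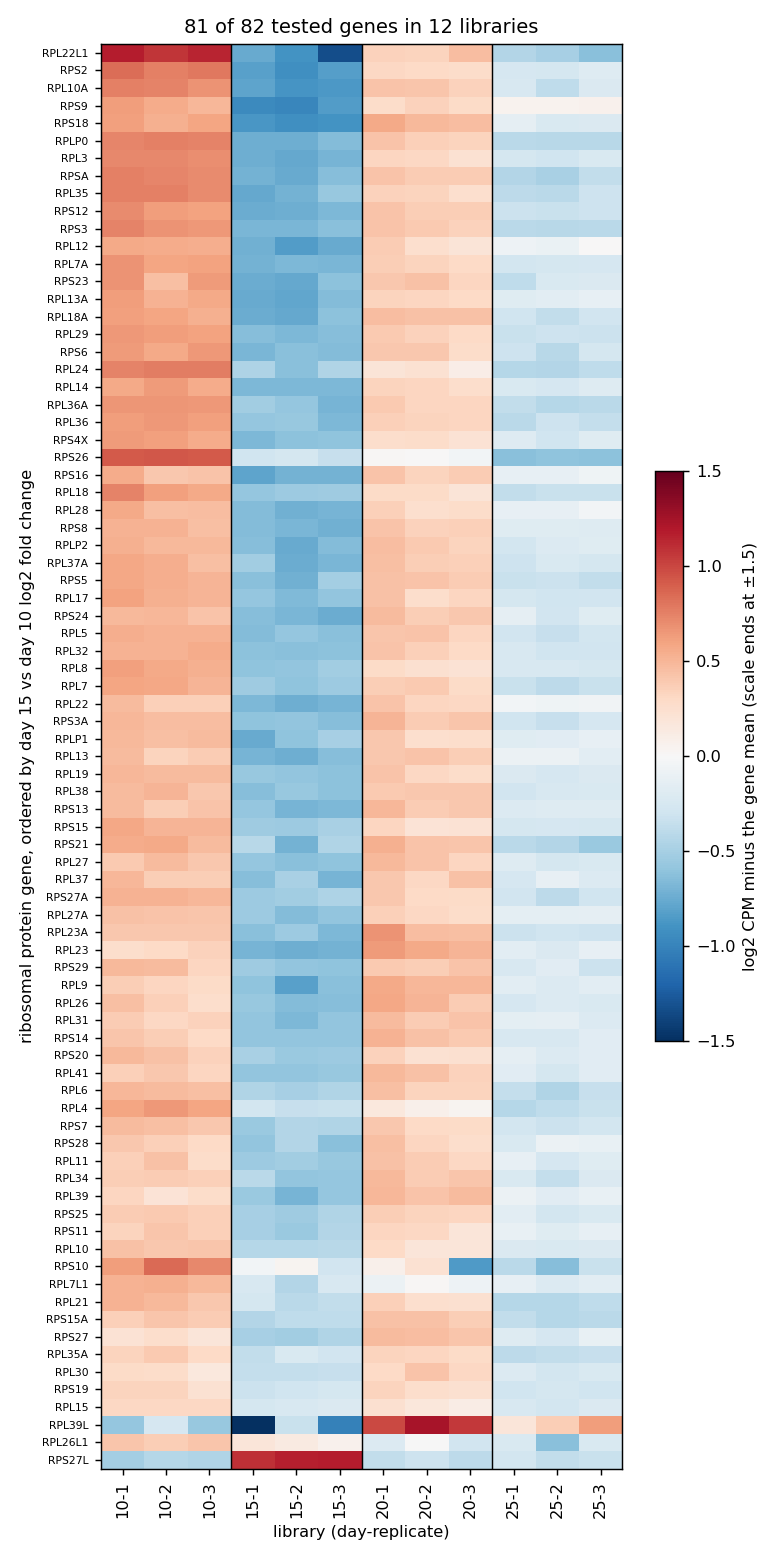
Log2 CPM of 81 of the 82 tested genes (rows) in the 12 libraries (columns, day and replicate), each gene set to its own mean over libraries; genes run from the lowest to the highest day 15 against day 10 log2 fold change, and the colour scale ends at 1.5 in size. Nearly all rows are high at days 10 and 20 and low at day 15, and RPS27L in the bottom row is high at day 15 alone.

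To find genes that leave the shared course, libraries were scaled so that the middle ribosomal protein gene stayed level, and a departure was called at an adjusted p under 0.05 with a log2 difference of at least 0.5 from that course. Between days 15 and 10, 5 genes lay above it, RPL15, RPL26L1, RPL30, RPS19 and RPS27L, beside 68.2% of all tested genes, and 2 below it, RPL22L1 and RPS2, beside 5.14%. Between days 20 and 15, RPL39L lay above it, beside 13.3%, and 7 lay below, RPL15, RPL26L1, RPL4, RPL7L1, RPS10, RPS26 and RPS27L, beside 55.8%. Between days 25 and 20 RPS27L alone lay above it, beside 47.5%, and none lay below, beside 4.8%. Between days 25 and 10, RPL39L and RPS27L lay above it, beside 54.0%, and RPL22L1 and RPS26 below, beside 11.4%. RPL15 and RPL30 are named because they were called, after their values were seen.

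RPS27L was the only tested ribosomal protein gene called higher at day 15 than at day 10. It encodes a near copy of RPS27, a small subunit protein. It had 35.5, 37.6 and 36.9 CPM at day 10, then 108.6, 113.7 and 114.5 at day 15, then 39.2, 40.9 and 38.7 at day 20, and last 41.8, 39.2 and 40.2 at day 25. All day 15 libraries stood above all others. The level was 3.06-fold higher at day 15 than at day 10 (log2 1.61 ± 0.055 SE, adjusted p = 5.6e-28) and 2.83-fold lower at day 20 than at day 15 (adjusted p = 5.7e-27). Between days 25 and 20 it was not called (log2 0.03, adjusted p = 0.72), and that value turns negative under scaling by library totals. Between days 25 and 10 it was 1.10-fold higher (adjusted p = 0.027), a call lost under scaling by library totals and without day 10 replicate 1 (log2 0.11) or day 25 replicate 1 (log2 0.12). RPS27 itself had 91.2, 89.5 and 94.4 CPM at day 15, against 149.6, 154 and 146 at day 10, and was 1.64-fold lower. Per kilobase of transcript, RPS27L stood at 12.9% ± 0.391 of RPS27 at day 10, 64.5% ± 2.14 at day 15, 11.8% ± 0.303 at day 20 and 18.8% ± 0.974 at day 25 (SD, n = 3 each).

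CDKN1A and MDM2, from a list of 20 regulators, also had their highest mean at day 15. Of that list 8 genes were called higher at day 15 than at day 10, a share near the 42.4% of all tested genes. CDKN1A, an inhibitor of the cell cycle, averaged 79.7 CPM at day 10, 1271 at day 15, 183 at day 20 and 225 at day 25. MDM2, a ubiquitin ligase, averaged 138, 377, 106 and 95.3 CPM on the 4 days in order. Whether these levels bear on RPS27L was not tested.

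RPL22L1 fell the furthest. It encodes the paralog of RPL22, an RNA-binding protein of the large subunit that αβ T-cell development in mice depends on. It had 65.5, 61.1 and 64.1 CPM at day 10, then 17.1, 15.6 and 11.6 at day 15, then 37.0, 36.7 and 40.1 at day 20, and last 21.4, 20.5 and 18.7 at day 25. The libraries of each pair of neighbouring days did not overlap. It was 4.31-fold lower at day 15 than at day 10 (log2 -2.11 ± 0.089 SE, adjusted p = 1.7e-23), which is 1.01 log2 units below the shared course. RPL22 averaged 216 CPM at day 10, 100.8 at day 15, 209.8 at day 20 and 158 at day 25, and stayed on the shared course between days 15 and 10 (adjusted p = 0.99). Per kilobase, RPL22L1 stood at 112% ± 3.72 of RPL22 at day 10, 55.9% ± 10.7 at day 15, 69.1% ± 5.62 at day 20 and 48.7% ± 3.26 at day 25 (SD, n = 3 each).

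RPL26L1, the paralog of the large subunit protein RPL26, did not follow the rebound. It had 18.8, 18.2 and 18.8 CPM at day 10, then 15.9, 15.5 and 14.6 at day 15, then 12.2, 13.9 and 11.5 at day 20, and last 12.0, 9.09 and 12.0 at day 25. Its log2 fold change between days 20 and 15 was -0.29 (adjusted p = 0.018), and 0.33 when libraries were scaled by their totals. The call was lost without day 15 replicate 1 (log2 -0.26), day 20 replicate 1 (log2 -0.27) or day 20 replicate 3 (log2 -0.23). Without the filter on low counts it was also lost, at a log2 fold change of -0.06. Its call as lower at day 15 than at day 10 was lost without day 15 replicate 3 (log2 -0.24). Against the shared course RPL26L1 was 1.25 log2 units low between days 20 and 15 (adjusted p = 9.1e-13). RPL26 was 2.17-fold higher at day 20 than at day 15. Reads of RPL26L1 and of an antisense gene that overlaps its exons on the opposite strand cannot be told apart, because no source used here says that counting used strand.

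RPL39L, a paralog of RPL39 best known from the testis, was rare. It had 1.30, 1.63 and 1.32 CPM at day 10, then 0.591, 1.55 and 0.965 at day 15, then 3.86, 4.59 and 4.06 at day 20, and last 2.21, 2.51 and 3.01 at day 25. Days 20 and 25 stood above both earlier days. It was 4.08-fold higher at day 20 than at day 15 (log2 2.03 ± 0.29 SE, adjusted p = 5.7e-08), resting on 423 counts at day 20 and 70 at day 15. RPL39 was 2.10-fold higher. Per kilobase RPL39L reached 1.77% ± 0.200 of RPL39 at day 20. Of the paralogs confined to muscle or testis, RPL3L had 71 counts over the 12 libraries and RPL10L had 12, all at day 25, and neither was tested.

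RPL7L1, a nucleolar relative of RPL7, had the smallest gain of the 79 genes called higher at day 20 than at day 15, with 99.8, 107.9 and 100.9 CPM at day 20, against 89.8, 78.6 and 89.7 CPM at day 15. Its libraries did not overlap. It was 1.19-fold higher (log2 0.26 ± 0.048 SE, adjusted p = 8.7e-06), and RPL7 was 1.88-fold higher. RPL36A and RPL36AL encode nearly the same protein, and reads from such copies, or from the many processed pseudogenes of ribosomal protein genes, may have been split by the counting, which the sources used here do not describe. RPL36AL stood at 164% ± 8.47 of RPL36A per kilobase at day 15 and at 101% ± 4.04 at day 10.

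**Figure D4:**
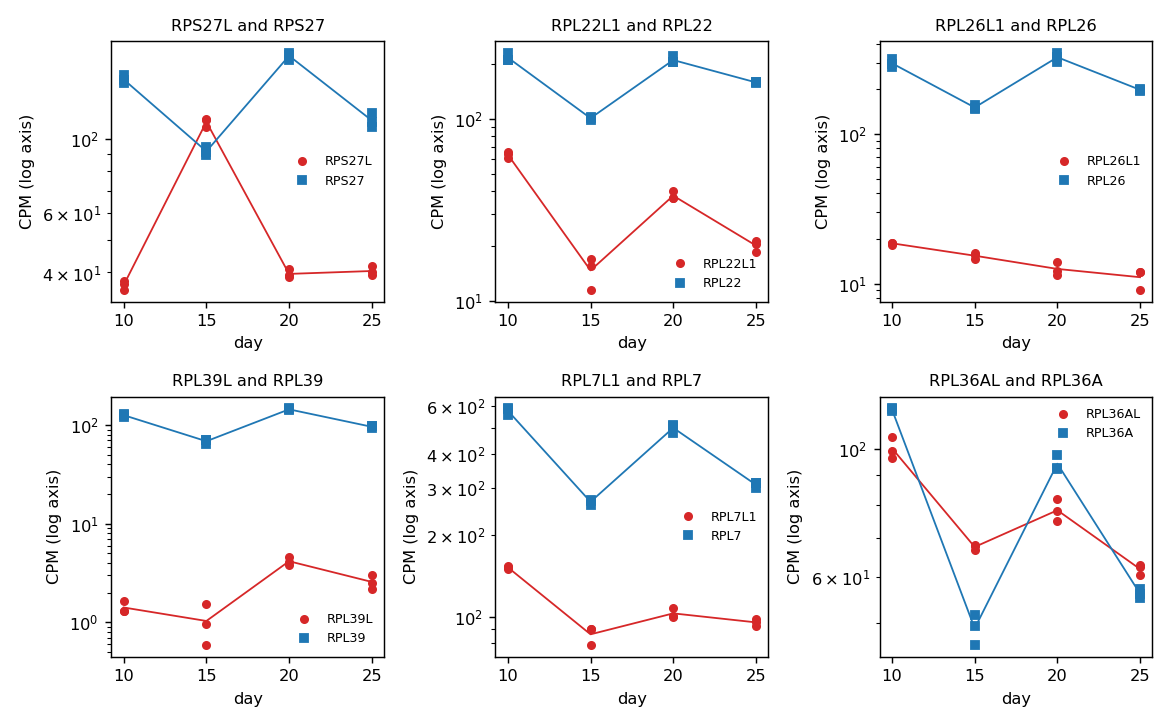
CPM (y axis, log scale) by day (x axis) of 6 paralogs (red circles) and their partners (blue squares); points are libraries and lines join the means of 3. RPS27L lies above RPS27 at day 15 and below it on the other days, and each of the 6 partners is lower at day 15 than at day 10.

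RPS26, a small subunit protein at the mRNA exit channel and a Diamond-Blackfan gene, recovered little. It had 208, 210.3 and 208 CPM at day 10, then 89.1, 91.4 and 86.8 at day 15, then 112, 111 and 107 at day 20, and last 71.2, 72.4 and 71.8 at day 25. Each pair of neighbouring days was free of overlap. It was 1.23-fold higher at day 20 than at day 15 (log2 0.30 ± 0.042 SE, adjusted p = 2.7e-08) and 2.91-fold lower at day 25 than at day 10 (log2 -1.54 ± 0.041 SE, adjusted p = 6.4e-32), 0.80 log2 units below the shared course. RPS19, the gene most often mutated in Diamond-Blackfan anaemia, fell by less than the median gene at day 15, with 336, 341 and 350.1 CPM at day 15, against 529.7, 528 and 492 CPM at day 10. The day 15 libraries lay below those of day 10, at 1.51-fold lower (log2 -0.59 ± 0.034 SE, adjusted p = 1.1e-19). RPL35A, another such gene, was 1.55-fold lower (log2 -0.63). RPL15, a large subunit protein, had 503, 511 and 518 CPM at day 15, against 748, 746 and 751 CPM at day 10, and was 0.55 log2 units above the shared course. Its exons overlap those of NKIRAS1 on the opposite strand.

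RPS10 was near absent from the table. It had 455 counts over the 12 libraries, and averaged 1.88 CPM at day 10, 1.06 at day 15, 1.04 at day 20 and 0.824 at day 25, and the next lowest small subunit gene at day 10 was RPS27L with 36.7 CPM. Its exons overlap those of the read-through gene RPS10-NUDT3 on the same strand, which had 0 counts. How reads over shared exons were counted is not given in any source used here, and its part in the low level was not tested. Exons of 31 of the 84 genes overlap those of another gene in the table on either strand, and 53 do not.

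The start sites of the genes were read from RefSeq on GRCh38.p14, where 83 entries matched 67 of the 84 genes. An unbroken run of at least 7 C or T within 20 bases either side of the start was present in 66 entries (79.5%), beside 25.6% of 35116 entries of all genes, and the longest run had a median of 11 bases, beside 5. The start base was C in 62.7%, beside 14.7%. The motif CCGGAAG on either strand of the 300-base entries, which run from 250 bases before to 50 after the start, was in 33.7%, beside 10.3%. CACGTG was in 6.02%, beside 7.26%, and TATAAA in the 50 bases before the start in 4.82%, beside 2.63%. These are matches of letters in a window and not binding sites.

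The windows of 30 bases before the start and 30 from it are shown for 3 of the paralogs that departed with their partners, for RPLP0 as an abundant gene and for RPS26 as a gene that recovered little. Capitals mark the longest C or T run within 20 bases of the start, and the start is the 31st base. RPS27L (chr15:63157448-63157507, minus strand) and the first RPL26L1 entry (chr5:172958699-172958758, plus strand) have runs of 3 and 6 bases, while RPS27 (chr1:153990732-153990791, plus strand), RPL26 (chr17:8383164-8383223, minus strand), RPL22L1 (chr3:170870166-170870225, minus strand) and RPL22 (chr1:6199566-6199625, minus strand) have 9, 14, 10 and 11. RPLP0 (chr12:120201082-120201141, minus strand) has 10 and RPS26 (chr12:56041888-56041947, plus strand) has 9. Among paralogs and partners not printed, RPL7L1 had a longest run of 2 bases and RPL39 of 22.
RPS27L: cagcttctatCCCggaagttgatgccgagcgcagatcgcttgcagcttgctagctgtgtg
RPS27: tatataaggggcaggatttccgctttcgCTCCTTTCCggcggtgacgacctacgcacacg
RPL26L1: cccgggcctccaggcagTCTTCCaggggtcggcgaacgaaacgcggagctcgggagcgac
RPL26: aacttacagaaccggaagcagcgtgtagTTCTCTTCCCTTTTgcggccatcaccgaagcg
RPL22L1: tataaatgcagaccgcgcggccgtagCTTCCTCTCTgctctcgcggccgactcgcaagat
RPL22: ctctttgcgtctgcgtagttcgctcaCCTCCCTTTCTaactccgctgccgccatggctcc
RPLP0: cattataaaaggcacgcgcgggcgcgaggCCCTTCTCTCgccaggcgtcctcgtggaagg
RPS26: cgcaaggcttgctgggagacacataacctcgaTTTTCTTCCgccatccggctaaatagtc

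Other ribosomal genes, translation factors, ribosome assembly genes and mitochondrial ribosomal protein genes had list medians of the same sign as the ribosomal protein genes in each comparison, and a list of regulators did not between days 20 and 15. Of 4 other ribosomal genes, among them FAU, which encodes a ribosomal protein fused to a ubiquitin-like protein, RACK1, a scaffold on the small subunit, and RPL36AL, all 4 were lower at day 15 than at day 10, beside 30.8% of all tested genes, and all 4 higher at day 20 than at day 15, beside 40.6%, with medians of -0.62 and 0.33. RACK1 had 400.4, 386 and 406 CPM at day 15, against 853, 865 and 849 CPM at day 10. Of 28 translation factors, 26 were lower and 1 higher at day 15 than at day 10, beside 30.8% and 42.4% of all tested genes, with a median log2 fold change of -0.89. At day 20, 25 were higher than at day 15, beside 40.6%, and at day 25, 24 were lower than at day 20, beside 25.1%. EEF1A1, which brings aminoacyl-tRNA to the ribosome, averaged 6859.7 CPM at day 10, 4096 at day 15, 6541 at day 20 and 4948 at day 25. EIF5A, which resolves stalled elongation, averaged 449.6, 203, 212 and 153 CPM in the same order and was not called between days 20 and 15 (adjusted p = 0.16).

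Among 41 genes of ribosome assembly, 39 were lower at day 15 than at day 10 and 0 higher, beside 30.8% and 42.4% of all tested genes, with a median log2 fold change of -1.09. At day 20, 30 were higher and 5 lower than at day 15, beside 40.6% and 36.0%, and at day 25, 33 were lower and 3 higher than at day 20, beside 25.1% and 24.5%. NPM1, a nucleolar chaperone, had 186.2, 186.3 and 186.5 CPM at day 15, against 702, 697 and 679 CPM at day 10. DKC1, the pseudouridine synthase of rRNA, ran down through the series, averaging 186, 87.8, 62.4 and 39.4 CPM. Of 77 tested mitochondrial ribosomal protein genes, 70 were lower and 2 higher at day 15 than at day 10, beside 30.8% and 42.4% of all tested genes, with a median log2 fold change of -0.91. At day 20, 55 were higher and 14 lower than at day 15, beside 40.6% and 36.0%, with a median of 0.46. At day 25, 38 were lower and 7 higher than at day 20, beside 25.1% and 24.5%, with a median of -0.20. MRPS6 went the other way, with 31.9 CPM at day 10, 71.9 at day 15, 54.9 at day 20 and 139 at day 25.

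**Figure D5:**
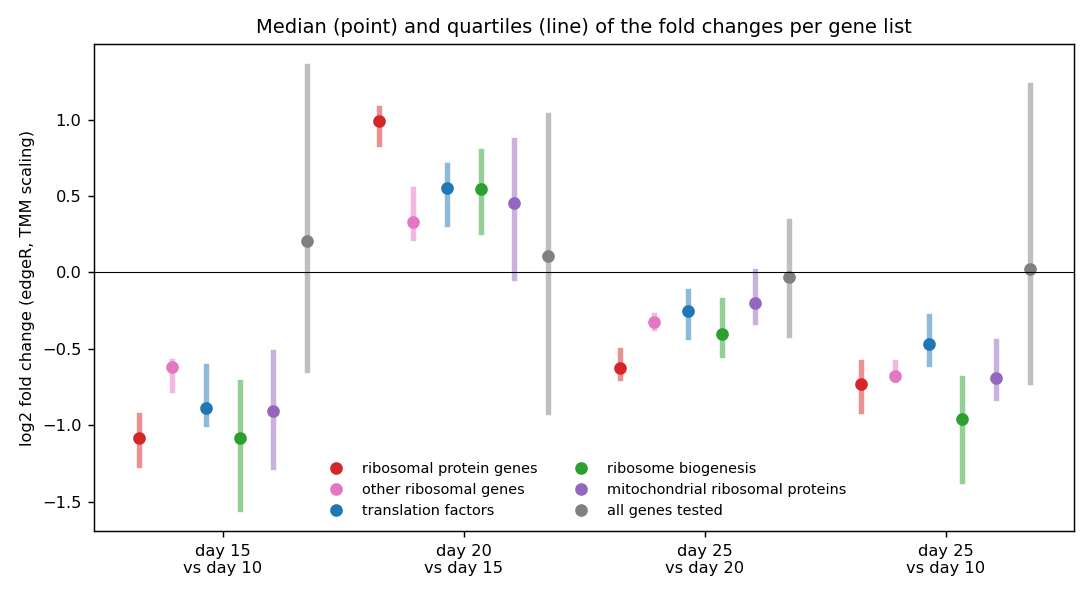
Median (point) and quartiles (line) of the log2 fold changes (y axis) in each comparison (x axis), for the ribosomal protein genes, 4 other ribosomal genes, 28 translation factors, 41 ribosome biogenesis genes, 77 mitochondrial ribosomal protein genes and all tested genes. The ribosomal protein genes and the 4 related lists lie on the same side of 0 in each comparison.

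A list of 20 regulators was mixed, with 8 higher and 10 lower at day 15 than at day 10, beside 42.4% and 30.8% of all tested genes, so the share higher lay near that of all genes. Its median log2 fold change was -0.23 there and -0.17 between days 20 and 15. MYC, a driver of ribosome synthesis, averaged 77.9 CPM at day 10, 34.7 at day 15, 56.1 at day 20 and 24.2 at day 25, and LARP1, which binds the start of mRNAs with a pyrimidine tract, averaged 524, 415, 259 and 226 CPM. Across the 82 genes the log2 fold change between days 15 and 10 had a Spearman correlation of -0.18 with transcript length and -0.29 with transcript GC content. Over 15908 tested genes with a transcript the values were 0.02 and 0.05. For the 82 genes they were 0.01 and 0.11 between days 20 and 15, and 0.23 and 0.15 between days 25 and 20. Between days 25 and 10 they were -0.14 and -0.09. All are given as a description over genes that share libraries and depth.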

How the data were processed

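The values are raw counts, which the authors deposited as 1 table of genes by libraries, per the file headers. Single-read libraries came from total RNA by a ligation-mediated protocol, per the labels' protocols. The submitters' processing notes name GRCh38. No source used here gives the aligner, counter, annotation or strand setting. Genes at a count of 2 outnumbered those at 1 in all 12 libraries, so counts may not be independent molecules, and limits set from counts cover counting error only.

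Symbols came from a table of gene names (235 IDs without one, 0.091% of counts), and exons and transcript lengths from GENCODE 29. Counts were fitted in R 4.3.3 with edgeR 4.0.16: filterByExpr with a minimum count of 10 (20183 genes), TMM factors from 0.753 to 1.172, and 1 robust quasi-likelihood fit over 12 libraries with no covariate (common biological coefficient of variation 6.03%). P-values were Benjamini-Hochberg adjusted over all tested genes. A second fit scaled libraries to the middle ribosomal protein gene. Data were simulated for days 15 and 10 over 17680 genes, from the day 10 profile with 200 genes changed. Of 2-fold changes 97.0% were recovered and of 1.5-fold changes 89.6%, and 4% of calls were false. With so few genes changed, the simulation does not cover the wide shifts of the real libraries. Alternatives used DESeq2 1.42.0 and limma 3.58.1. CPM is TMM-scaled unless a share is stated. No pairing of libraries across days by replicate number was seen, as same-number correlations of deviations lay between -0.016 and 0.016. Where the spread is technical, these values cannot exclude a pairing.

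Named genes were those at least 1 log2 unit from the median (and at 1 CPM or more on 1 of the days), the 5 with most counts, paralog pairs, Diamond-Blackfan anaemia genes and the 3 highest and lowest changes per comparison, with the largest changes of each related list. Members and lists were chosen with earlier results of these data known. Results of a few of these genes are not reported here.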

Additional observations from a re-analysis of the deposited data

How the results depend on the processing

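Of 2640 values of named ribosomal protein genes under alternatives, 2599 kept their direction and side of the threshold, 36 lost and 3 gained a call, and 2 reversed. Named genes of the related lists are not among these values. Both reversals came under scaling by library totals: RPL26L1 between days 20 and 15 (log2 0.33) and RPS27L between days 25 and 20 (log2 -0.14). That scaling moved the median of all tested genes to -0.32 between days 15 and 10, 0.73 between days 20 and 15, -0.19 between days 25 and 20 and -0.04 between days 25 and 10; the ribosomal protein medians were then -1.62, 1.62, -0.79 and -0.81, and less those of all genes they were -1.30, 0.89, -0.59 and -0.76, beside -1.29, 0.89, -0.59 and -0.75 under TMM. Genes lower at day 20 than at day 15 numbered 1 under library totals, without a filter and at an adjusted p under 0.01, and 1 to 2 with a library left out. Genes higher at day 25 than at day 10 numbered 1 under library totals and at 0.01, and 1 to 2 with a library left out. With members whose exons overlap no other gene, chosen after seeing the data, lower or higher calls numbered 49 lower (days 15 and 10), 50 higher and 1 lower (days 20 and 15), 50 lower (days 25 and 20) and 49 lower (days 25 and 10), and the shares were 2.71%, 0.826%, 2.48% and 1.47% on days 10 to 25. Without a minimum departure, 27 genes lay above and 29 below the shared course between days 15 and 10, 27 and 24 between days 20 and 15, 20 and 19 between days 25 and 20, and 30 and 29 between days 25 and 10. With a library left out, departures above the course numbered 3 to 7 between days 15 and 10 (3 without day 10 replicate 3), 1 to 2 between days 20 and 15 (2 without day 15 replicate 1) and 1 to 3 between days 25 and 20 (3 without day 20 replicate 2 or day 25 replicate 2). Shares were 4.20%, 1.29%, 3.88% and 2.30% of counts without mitochondrially encoded genes, 4.56%, 1.46%, 4.32% and 2.60% without the 50 other genes with most counts, and 3.50%, 1.11%, 3.30% and 1.95% without the 3 largest members. The replicate block used numbers for which no pairing was seen. It gave 1 higher and 79 lower between days 15 and 10, and 79 and 2 between days 20 and 15. Between days 25 and 20 it gave 0 and 78, and between days 25 and 10 it gave 2 and 80. The cause of a change, the reversals included, was not tested. RPS10 and RPL39L rest on few counts.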
